A study of Danio rerio with 12 samples.

Results

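Cxcl12 is a secreted chemokine, a small protein that guides migrating cells. Zebrafish (Danio rerio) carry it as a pair of genes, cxcl12a and cxcl12b. The ligand binds the G-protein-coupled receptors Cxcr4a and Cxcr4b on the cell that moves, and it also binds the atypical receptors of the Ackr3 group, formerly called Cxcr7, which take it up and clear it from the surroundings. In zebrafish embryos, Cxcl12a and Cxcr4b direct the primordial germ cells and the lateral line primordium. In mammals the system steers interneurons, Cajal-Retzius cells and cerebellar granule cell precursors, keeps blood stem cells in the marrow, and acts on lymphocytes and microglia, with meninges and blood vessels among the sources of the ligand.

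The genes described are cxcl12a, cxcl12b, cxcr4a and cxcr4b, found by their symbols, which make 4 of 32674 genes in the deposited tables. The list held 6 names, and neither cxcr7a nor cxcr7b is used as a symbol there. A RefSeq name table links cxcr7a to the gene listed as si:dkey-191g15.12 (ackr3a) and cxcr7b to ackr3b, and it gives cxcr7b also as an older name of ackr3a. These 2 genes were added after their values were seen and are given beside the others as related receptors. The genes were chosen by measured values, with the difference of cxcl12b between the lineages known. All differences of the 4 genes between lineages are therefore a description. Whether cxcl12b passes the threshold used for all genes is given below, but it is not read as a test.

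The study asked how the brains of fish descended from eggs treated with methylmercury differ from those of untreated descent. Methylmercury (MeHg) is an organic mercury compound that enters the brain and damages neurons. EK strain eggs spent 24 h in 0 µM (control lineage) or 0.03 µM MeHg (MeHg lineage), both with ethanol as vehicle. They became the F1 generation, and the adult brains sequenced came from F3 fish of each lineage, which, like their F2 parents, had no contact with added MeHg. Whether a library holds 1 brain or several is not stated, so the spread between libraries is taken as the error. The control lineage had 5 libraries with a named column of values, numbered 2, 4, 5, 6 and 8. The MeHg lineage had 6, numbered 1, 2, 4, 5, 7 and 8. Control replicate 1 is also in the labels, but no column bears its name and it was not used. In whole-brain RNA, fewer cells of a type and less RNA per cell cannot be told apart.

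All libraries carried brain markers at high levels, with a mean of 1372 FPKM (a fragment count normalised for transcript length and library depth) for the synaptic gene snap25a and 7519 FPKM for the myelin gene mbpa. Depth, as implied by the values, ran from 2062482 to 6100929 fragments for the control lineage and from 3248615 to 7503932 for the MeHg lineage. Markers of epidermis, skeletal muscle, retina and pineal, pituitary and red blood cells were present to different degrees. Which tissue their transcripts came from was not tested. An epidermis score, the mean log2 value of 10 epidermis markers centred over libraries, was positive in 4 libraries (control replicates 4 and 5, MeHg replicates 4 and 5) at 0.55 to 3.86, and it was -2.20 to -0.07 in the other 7. Summed epidermis markers reached 322 to 12004 FPKM in control and 224 to 8470 FPKM in MeHg libraries. Skeletal muscle markers summed to 52.8 to 548 FPKM in control and 41.9 to 4781 FPKM in MeHg libraries. Retina and pineal markers summed to 36.4 to 443 FPKM and 34.9 to 6220 FPKM, the last in MeHg replicate 8. Pituitary markers summed to 9.25 to 63.0 FPKM in control and 7.73 to 4867 FPKM in MeHg libraries. Red blood cell markers summed to 1031 to 10105 FPKM in control and 1295 to 7311 FPKM in MeHg libraries. Circadian clock genes moved with lineage, with 18 of 29 past the threshold, 7 of them up and 11 down in MeHg brains (limma with Benjamini-Hochberg adjustment at 0.05). Over all tested genes the share past the threshold was 0.269% (44 of 16364). The clock list was chosen with earlier results of these data known, so its count is a description. No hour of collection is in the labels, and for every gene below an effect of lineage and one of the time of day of collection cannot be told apart.

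Of the 6 genes, cxcl12a was the most abundant. Its level per length ranged from 17.9 to 67.8 FPKM over the 11 libraries. Of the genes with signal in any library, 91.6% had a lower mean FPKM. The scavenger receptor gene ackr3b followed at 8.22 to 28.2 FPKM, then cxcl12b at 5.51 to 14.6 FPKM, cxcr4b at 3.96 to 17.4 FPKM, si:dkey-191g15.12 at 3.33 to 9.16 FPKM and cxcr4a at 1.30 to 4.18 FPKM. Of the same genes with signal, 69.7% lay below cxcl12b, 62.4% below cxcr4b and 44.5% below cxcr4a. Both ligand genes thus stood above both Cxcr4 receptor genes in mean FPKM.

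**Figure D1:**
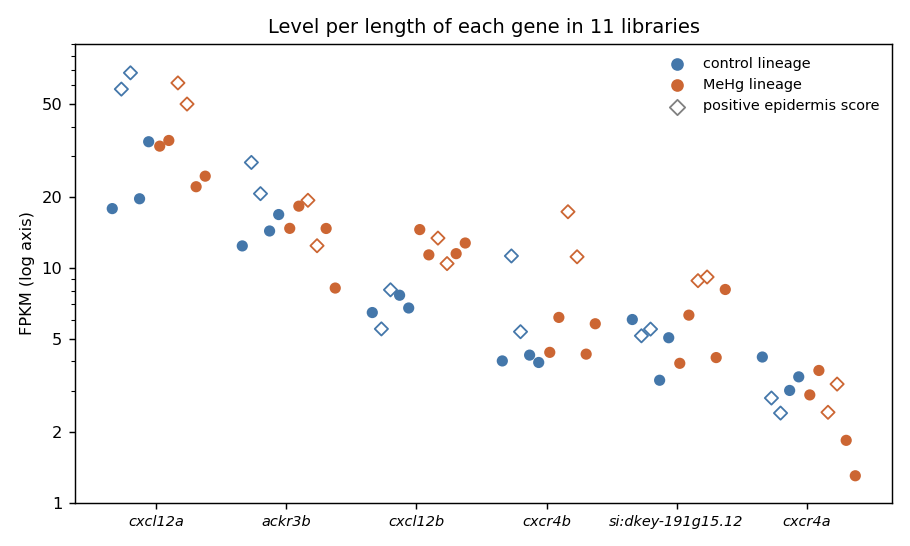
FPKM (log axis) of cxcl12a, ackr3b, cxcl12b, cxcr4b, si:dkey-191g15.12 and cxcr4a in each of 5 control (blue) and 6 MeHg (orange) libraries, 1 point per library, with open diamonds for the 4 libraries with a positive epidermis score. cxcl12a lies between 17.9 and 67.8 FPKM, above every cxcl12b value, while the ranges of cxcl12b and cxcr4b overlap.

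The order of neighbours was compared within each library as a difference of log2(FPKM + 0.1), with a two-sided exact sign-flip test over 11 libraries and adjustment over 3 pairs. cxcl12a exceeded cxcl12b in 11 of 11 libraries, by 1.88 ± 0.83 on the log2 scale (SD, n = 11; exact p = 0.000977, the smallest this test can give; adjusted p = 0.00293), and their ranges did not overlap. cxcr4b exceeded cxcr4a in 10 of 11 libraries, by 1.17 ± 0.89 (SD, n = 11; exact p = 0.00195, adjusted p = 0.00293). The exception was control replicate 2, with 4.02 FPKM of cxcr4b and 4.18 FPKM of cxcr4a. cxcl12b exceeded cxcr4b in 8 of 11 libraries, by 0.59 ± 0.80 (SD, n = 11; exact p = 0.0371, adjusted p = 0.0371). Within the MeHg lineage alone this last difference was 0.78 (adjusted exact p = 0.125, n = 6). Within the control lineage it was 0.36, and with 5 libraries the smallest exact p is 0.0625, so that no step could pass there. The 11 libraries include the MeHg values of cxcl12b that led to its choice. The pooled p of its step above cxcr4b, and that of cxcl12a above it, are therefore not read as tests. The order came from sorting the 4 genes by mean FPKM in the same 11 libraries, so the direction of each step was set beforehand.

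Among the ligands, cxcl12b (ENSDARG00000055100) was the gene that differed between the lineages. Its scaled count, a fragment count divided by the authors' size factor for the library, was 98.3, 83.9, 123, 117 and 103 in control replicates 2, 4, 5, 6 and 8. In the MeHg lineage it was 223, 174, 205, 159, 176 and 195 in replicates 1, 2, 4, 5, 7 and 8. The lowest MeHg library (replicate 5) lay above the highest control library (replicate 5), so the groups did not overlap. The means were 105 ± 15.7 (SD, n = 5) and 189 ± 23.3 (SD, n = 6), a log2 difference of 0.84 ± 0.14 (SE) on the log2(scaled count + 1) scale, or 1.79-fold. Per length, cxcl12b averaged 6.89 ± 1.01 FPKM (SD, n = 5) in the control and 12.4 ± 1.52 FPKM (SD, n = 6) in the MeHg lineage. These values rest on 43 to 238 implied fragments a library.

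**Figure D2:**
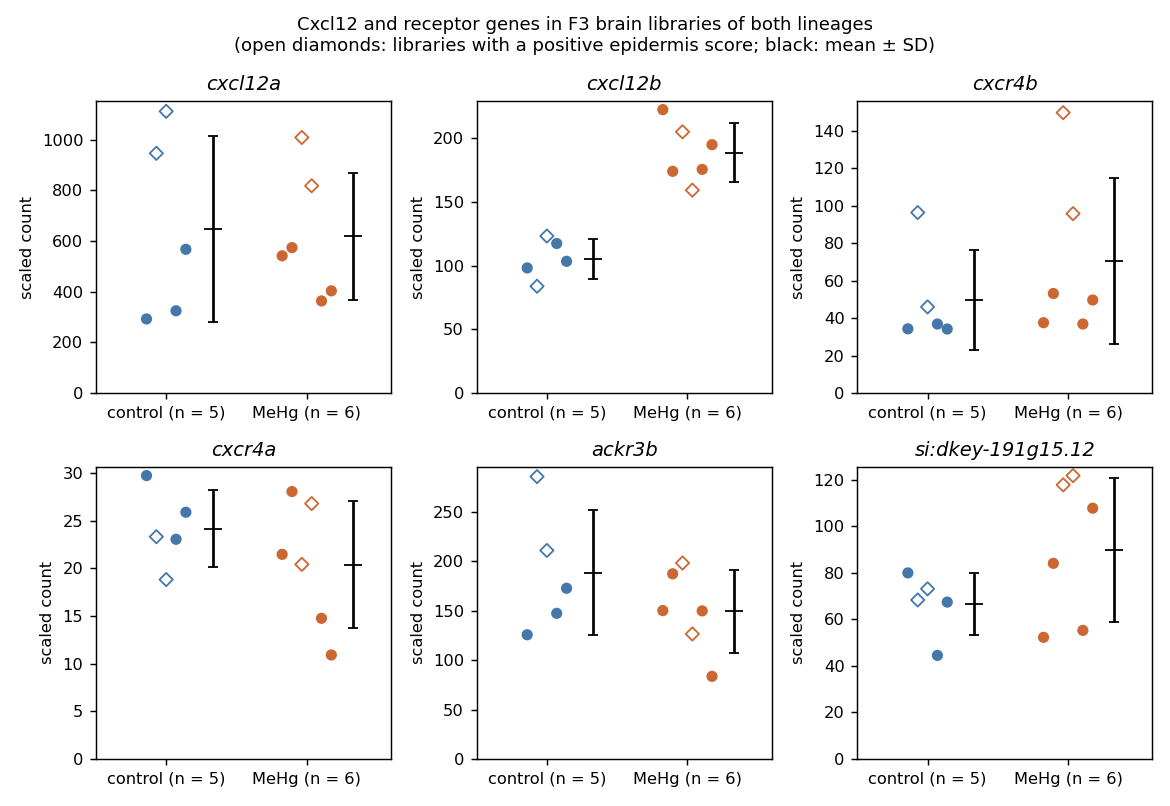
Scaled counts of the 4 Cxcl12 and Cxcr4 genes and the 2 Ackr3 genes in 5 control (blue) and 6 MeHg (orange) libraries, 1 point per library, with the mean ± SD in black and open diamonds for the 4 libraries with a positive epidermis score. For cxcl12b the MeHg libraries (159 to 223) lie above the control libraries (83.9 to 123), and the groups overlap for each of the other 5 genes.

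Across the whole table, 44 of 16364 tested genes passed the threshold, 16 higher and 28 lower in the MeHg lineage, which is 0.269% of the genes tested, and 1082 had an unadjusted p under 0.05. Of the 4 genes, 1 (cxcl12b) was among them. Groups did not overlap and were higher in the MeHg lineage for 103 genes, 0.629% of those tested, again with 1 of the 4 genes, cxcl12b. Since this contrast was used to choose the genes, nothing is read from these shares. Among the 44 genes, 1 had a smaller absolute log2 difference than cxcl12b, and their median was 1.79.

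The difference of cxcl12b had the same direction and a similar size under the processing settings tried. These reuse the values that chose the gene, so they describe the processing only. Over 22 other settings the log2 difference ran from 0.76 to 1.12, the highest value being that without any scaling between libraries (1.12 ± 0.41 SE). In the 7 libraries with a negative epidermis score it was 0.84 ± 0.15 (SE), with 98.3 to 117 in 3 control and 174 to 223 in 4 MeHg libraries. Its place among the genes past the threshold was less steady, with 11 of the 22 settings (8 of 11 that each left out 1 library and 3 of the other 11) and the fit to those 7 libraries leaving it short of the threshold.

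**Figure D3:**
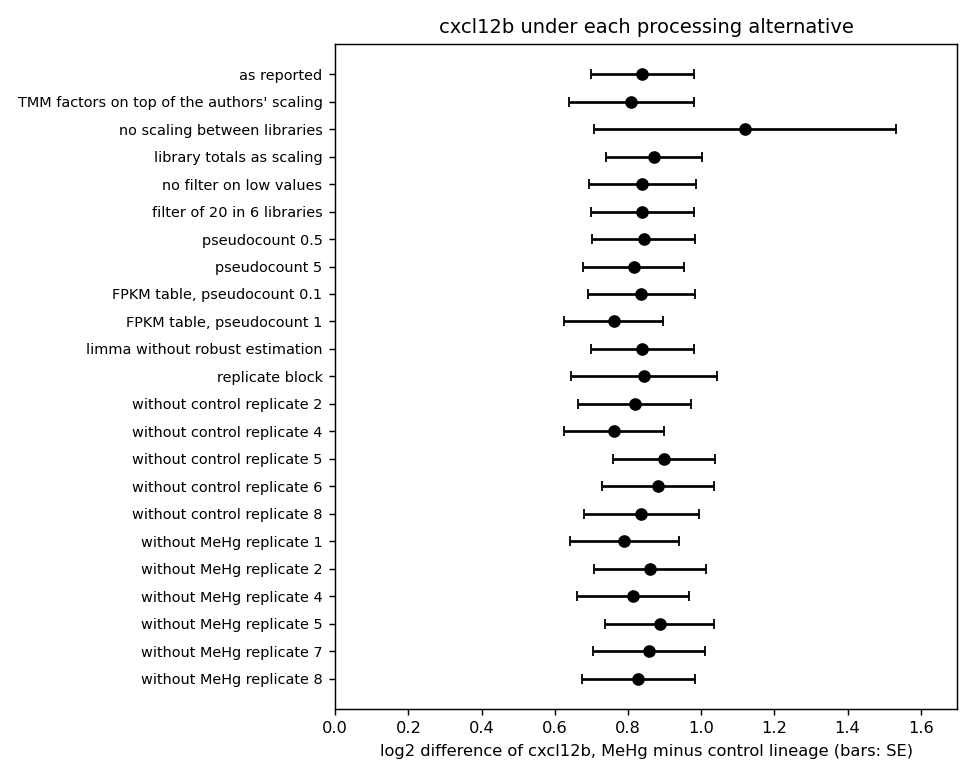
Log2 difference of cxcl12b, MeHg minus control lineage, with its SE, as reported and under each of 22 other processing settings. All values lie between 0.76 and 1.12, and the one without scaling between libraries has the widest error (0.41).

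The paralog cxcl12a (ENSDARG00000037116) differed far more between libraries of 1 lineage than between the lineages. Its scaled count was 293, 946, 1112, 325 and 567 in control replicates 2, 4, 5, 6 and 8, and 542, 574, 1009, 818, 364 and 403 in MeHg replicates 1, 2, 4, 5, 7 and 8. Replicates 4 and 5 were high in both lineages, and the groups overlapped over most of their range. The log2 difference between lineages was 0.04 ± 0.38 (SE), with means of 649 ± 368 (SD, n = 5) and 618 ± 250 (SD, n = 6). Over the other settings it ran from -0.20 (without control replicate 2) to 0.32 (without scaling between libraries), and it was also negative without control replicate 6, MeHg replicate 4 or MeHg replicate 5. With 128 to 1222 implied fragments a library, cxcl12a was the best counted of the 4 genes, and its coefficient of variation was 56.7% in the control and 40.4% in the MeHg lineage, against 14.9% and 12.3% for cxcl12b.

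The share of cxcl12b in the summed FPKM of both ligand genes does not depend on the scaling between libraries. It was 26.5%, 8.69%, 10.6%, 28.0% and 16.4% in control replicates 2, 4, 5, 6 and 8. In MeHg replicates 1, 2, 4, 5, 7 and 8 it was 30.6%, 24.6%, 17.9%, 17.3%, 34.2% and 34.2%. Means were 18.0% ± 8.88 (SD, n = 5) and 26.5% ± 7.70 (SD, n = 6), and the groups overlapped. In each lineage the lowest shares were those of replicates 4 and 5, where cxcl12a was high. Summed ligand FPKM was 46.4 ± 22.5 (SD, n = 5) in the control and 50.05 ± 15.3 (SD, n = 6) in the MeHg lineage, again overlapping.

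Of the signalling receptors, cxcr4b (ENSDARG00000041959) had scaled counts of 34.3, 96.3, 46.0, 36.9 and 34.2 in control replicates 2, 4, 5, 6 and 8. MeHg replicates 1, 2, 4, 5, 7 and 8 had 37.5, 53.1, 150, 95.7, 36.9 and 49.7. The 3 highest values were those of control replicate 4 and MeHg replicates 4 and 5, and the remaining libraries of both lineages lay between 34.2 and 53.1. The log2 difference between lineages was 0.42 ± 0.39 (SE) with overlapping groups, and 0.31 ± 0.23 (SE) in the 7 libraries with a negative epidermis score. Leaving out MeHg replicate 4 gave 0.17 and leaving out control replicate 4 gave 0.69, the lowest and highest of the 11 such fits.

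cxcr4a (ENSDARG00000057633) was scarce. Scaled counts were 29.7, 23.3, 18.8, 23.0 and 25.9 in control replicates 2, 4, 5, 6 and 8, and 21.5, 28.0, 20.4, 26.8, 14.7 and 10.9 in MeHg replicates 1, 2, 4, 5, 7 and 8. MeHg replicates 7 and 8 were the lowest of all 11, and the groups overlapped. The log2 difference was -0.29 ± 0.28 (SE), and it ran from -0.53 in the 7 libraries with a negative epidermis score to -0.02 without scaling between libraries. Without MeHg replicate 8 it was -0.13. The counts rest on 9 to 40 implied fragments a library.

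The balance of the receptors varied between libraries. The ratio of cxcr4b to cxcr4a FPKM was 0.962 to 4.03 in control libraries, with a mean of 1.96 ± 1.25 (SD, n = 5), and 1.52 to 7.15 in MeHg libraries, with a mean of 3.43 ± 2.13 (SD, n = 6). The highest ratio of each lineage belonged to its replicate 4, where cxcr4b was high, and the groups overlapped. MeHg replicate 8 came next in its lineage at 4.44, with cxcr4b at 49.7 and the lowest cxcr4a value, 10.9. Summed Cxcr4 FPKM was 8.94 ± 2.88 (SD, n = 5) and 10.7 ± 5.34 (SD, n = 6).

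The scavenger receptor genes also overlapped between lineages. For ackr3b (ENSDARG00000058179) the scaled count was 126, 286, 211, 147 and 173 in control replicates 2, 4, 5, 6 and 8, and 150, 187, 198, 127, 150 and 83.6 in MeHg replicates 1, 2, 4, 5, 7 and 8. Control replicate 4 was the highest and MeHg replicate 8 the lowest library, for a log2 difference of -0.33 ± 0.25 (SE). For si:dkey-191g15.12 (ENSDARG00000062478) the scaled count was 80.0, 68.4, 73.2, 44.5 and 67.5 in the control and 52.3, 84.1, 118, 122, 55.3 and 108 in the MeHg libraries, in the same order of replicates. The 3 highest values (MeHg replicates 4, 5 and 8) and also low ones (replicates 1 and 7) came from the MeHg lineage, for a log2 difference of 0.37 ± 0.26 (SE). Their summed FPKM was 23.5 ± 6.42 (SD, n = 5) in the control and 21.4 ± 4.41 (SD, n = 6) in the MeHg lineage.

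Levels of cxcl12a and cxcr4b were higher in the libraries with a positive epidermis score. In the 4 libraries with a positive epidermis score, the mean scaled count was 2.22 times that of the other 7 for cxcl12a and 2.40 times for cxcr4b. The same ratio was 0.921 for cxcl12b, 1.02 for cxcr4a, 1.41 for ackr3b and 1.36 for si:dkey-191g15.12. Within lineages, cxcl12a was 946 to 1112 in the 2 positive control libraries against 293 to 567 in the other 3, and 818 to 1009 in the 2 positive MeHg libraries against 364 to 574 in the other 4. These pairs of ranges did not overlap in either lineage. For cxcr4b the ranges were 46.0 to 96.3 against 34.2 to 36.9 in the control and 95.7 to 150 against 36.9 to 53.1 in the MeHg lineage, also without overlap. For ackr3b the ranges parted in the control lineage only, at 211 to 286 against 126 to 173. Those of si:dkey-191g15.12 parted in the MeHg lineage only, at 118 to 122 against 52.3 to 108. This split of the libraries was made after seeing the data. The share of all genes that part in this way is not given, so nothing is read from the lack of overlap. The 4 libraries also had the highest mural and meningeal scores, 0.37 to 1.11 against -0.51 to -0.25 in the other 7. What part tissue around the brain has in the levels of cxcl12a and cxcr4b was not tested.

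Relations across libraries were computed on log2(scaled count + 1) centred within each lineage, with a two-sided exact permutation test over the 86400 orders of libraries within lineages. Of the 6 pairs among the 4 genes, only cxcl12a and cxcr4b passed the adjusted threshold in Pearson's r. They had r = 0.74 over 11 libraries (exact p = 0.00488, adjusted p = 0.0293) and Spearman's rho = 0.691 (exact p = 0.0188, adjusted p = 0.113), and r = 0.862 without the 2 libraries farthest from the median of cxcl12a. Among the 7 libraries with a negative epidermis score r was 0.141 (exact permutation p = 0.597), so the relation was not seen without the other 4 libraries. Those 7 libraries span less of the range of both genes, so a low r there cannot show that the relation is absent. The other 5 pairs had r from -0.33 to 0.18.

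cxcl12a tracked the level of immune cell markers. The score of 20 microglia and leukocyte markers, among them apoeb, hexb and coro1a, ran from -0.55 in control replicate 2 to 0.82 in MeHg replicate 4. The 4 libraries with a positive epidermis score were also the 4 highest in this score, at 0.10 to 0.82 against -0.55 to -0.05 in the other 7, so immune, epidermis and meningeal markers were high in the same libraries. With cxcl12a it had r = 0.935 (exact permutation p = 1.16e-05, the smallest this test can give; adjusted over 40 relations p = 0.000463) and rho = 0.955 (exact p = 8.10e-05, adjusted p = 0.00324). Without the 2 libraries farthest from the median score r was 0.951. It was also 0.929 among the 7 libraries with a negative epidermis score (exact permutation p = 0.0139). Adjustment over the 40 relations in those libraries raised this p to 0.278. The smallest exact permutation p with those 7 libraries is 0.00694, so no relation could pass that adjustment alone. Nothing is read from the adjusted value.

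cxcr4b had r = 0.829 with the same score (exact permutation p = 0.00118, adjusted p = 0.0132) and rho = 0.791 (exact p = 0.00619, adjusted p = 0.0495), and r = 0.833 without the 2 farthest libraries. Among the 7 libraries with a negative epidermis score r was 0.306 (exact permutation p = 0.472). Neither cxcl12b (r = 0.09, exact permutation p = 0.810) nor cxcr4a (r = 0.03, exact permutation p = 0.928) passed. Without the 2 farthest libraries cxcl12b had r = -0.503 with the immune score. The closest marker score to cxcl12b was that of vessels, at r = 0.599 (exact permutation p = 0.0772, adjusted p = 0.221). Among the 7 libraries with a negative epidermis score that r was 0.076. In all, 8 of the 40 relations between 10 marker scores and 4 genes passed the adjusted threshold in Pearson's r, 5 with cxcl12a and 3 with cxcr4b. Of these, 6 involve the epidermis, skeletal muscle, mural and meningeal, or retina and pineal scores. Over 11 libraries cxcl12a had r = 0.771 with the epidermis score and 0.715 with the skeletal muscle score. It had r = 0.765 with the mural and meningeal score and -0.757 with the retina and pineal score. For cxcr4b, r was 0.944 with the epidermis score and 0.901 with the mural and meningeal score. The libraries were unevenly spread over these scores, and the pooled values are a description. The immune score, pooled above, was also highest in the libraries with a positive epidermis score. Among the 6, only cxcl12a with the retina and pineal score was negative. That of cxcl12a with the mural and meningeal score changed sign among the 7 libraries with a negative epidermis score (r = -0.945, unadjusted exact permutation p = 0.0347). For cxcr4b the relations with the epidermis score and with the mural and meningeal score were both closer in Pearson's r than that with the immune score over all 11 libraries. Among the 7 libraries with a negative epidermis score they had r = 0.740 (exact permutation p = 0.292) and r = 0.03 (exact permutation p = 0.924). By Spearman's rho over 11 libraries, cxcl12a did not pass with the mural and meningeal, epidermis, or retina and pineal scores. Nor did cxcr4b pass by rho with the mural and meningeal score, while it passed with the skeletal muscle score by rho only.

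**Figure D4:**
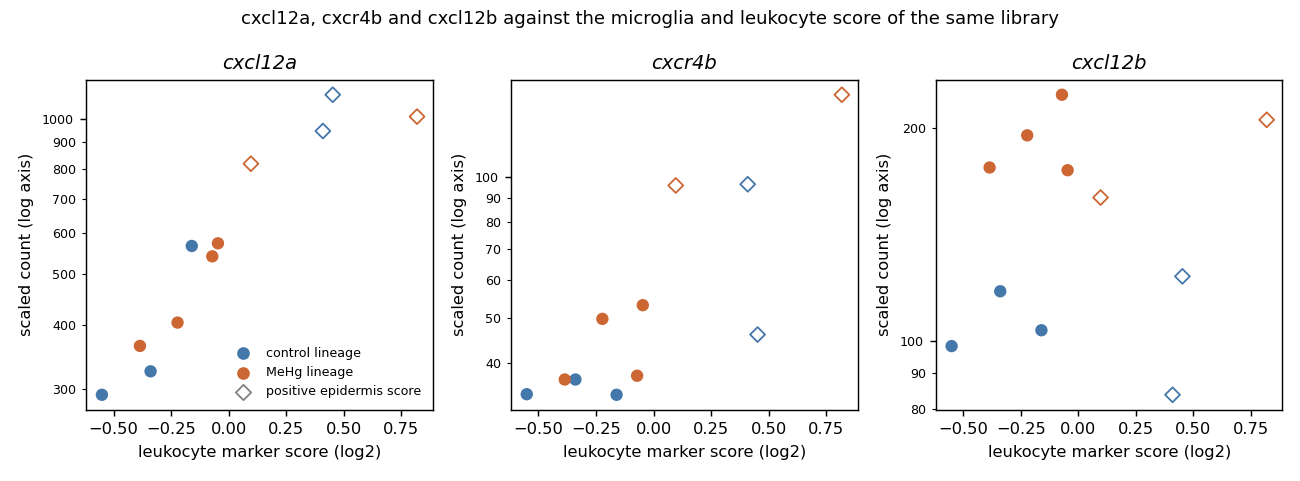
Scaled count (log axis) of cxcl12a, cxcr4b and cxcl12b against the microglia and leukocyte marker score (log2, centred over libraries) in 5 control (blue) and 6 MeHg (orange) libraries, with open diamonds for the 4 libraries with a positive epidermis score. cxcl12a follows the score in both lineages, while all MeHg values of cxcl12b lie above its control values. With values centred within each lineage, unlike those plotted, r was 0.935 for cxcl12a and 0.09 for cxcl12b.

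The immune markers themselves overlapped between lineages. Their 26 rows summed to 508 to 2140 FPKM in control and 417 to 938 FPKM in MeHg libraries, with apoeb alone at 265 to 1943 FPKM over all libraries. Of the 20 tested 0 passed the threshold and 1 had an unadjusted p under 0.05 (limma). It was apoeb, the most abundant of them, at -0.80 ± 0.36 (SE; limma, Benjamini-Hochberg adjusted p = 0.743). The median log2 difference of the 20 was 0.09, beside 0.03 over all tested genes. The 21 tested vessel markers likewise held 0 past the threshold in either direction, with 2 at an unadjusted p under 0.05 (limma), a median of 0.15 and 14 positive differences. The 3 most abundant were the water channel gene aqp1a.1 at -0.41 ± 0.23 (SE), the glucose transporter gene slc2a1a at 0.29 ± 0.39 (SE) and mfsd2ab, a lipid transporter of the blood-brain barrier, at 0.73 ± 0.18 (SE; limma, Benjamini-Hochberg adjusted p = 0.831, 0.924 and 0.170). The groups did not overlap for mfsd2ab, at 144 to 215 in control and 245 to 473 in MeHg libraries. It is among the 103 of 16364 tested genes that were higher in this way. For the 17 mural and meningeal markers the count was 0 (limma, 0 at an unadjusted p under 0.05), with a median of 0.07.

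The genes most like each of the 4 were found by Pearson's r of centred log2 values over 11 libraries, among 8413 genes with a gene symbol and a mean scaled count of at least 50. They are a description, as the best of many candidates. cxcl12a was most like alcamb, a cell adhesion molecule (r = 0.968), yrk, a Src family kinase (r = 0.962), and serpinh1a, a collagen chaperone (r = 0.961). cxcr4b was most like the collagen VI gene col6a3 (r = 0.958), ef1 (r = 0.956) and the membrane-bound metalloproteinase gene mmp14b (r = 0.949). For cxcl12b the nearest were rnf10, a RING finger protein (r = 0.932), rbmx, an RNA-binding protein (r = 0.893), and ier5l (r = 0.837). cxcr4a had lower maxima, with ccsapa (r = 0.843), the pentraxin gene ptx3a (r = 0.827) and rasgef1ba (r = 0.818).

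Most other genes of the chemokine system did not reach the filter, and none of the 11 tested passed the threshold. Of 31 rows for other ligands, 6 reached the filter of a scaled count of 10 in 6 libraries, with 2 positive and 4 negative differences and a median of -0.03. The largest of them was that of cxcl18b, a ligand of the CXC type, with a log2 difference of -0.89 ± 0.42 (SE; limma, Benjamini-Hochberg adjusted p = 0.777). The most abundant were ccl34b.1, ccl25b and cxcl14, with means of 233, 151 and 56.4 FPKM, all above cxcl12a (38.5 FPKM). Their differences were 0.25 ± 0.32, -0.24 ± 0.72 and -0.04 ± 0.22 (SE). Of 15 rows for other receptors 5 were tested, with 2 positive and 3 negative differences and a median of -0.11, among them the scavenger receptor gene ackr4b at 0.42 ± 0.23 (SE; limma, adjusted p = 0.831). In both lists 0 genes had an unadjusted p under 0.05 (limma).

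**Figure D5:**
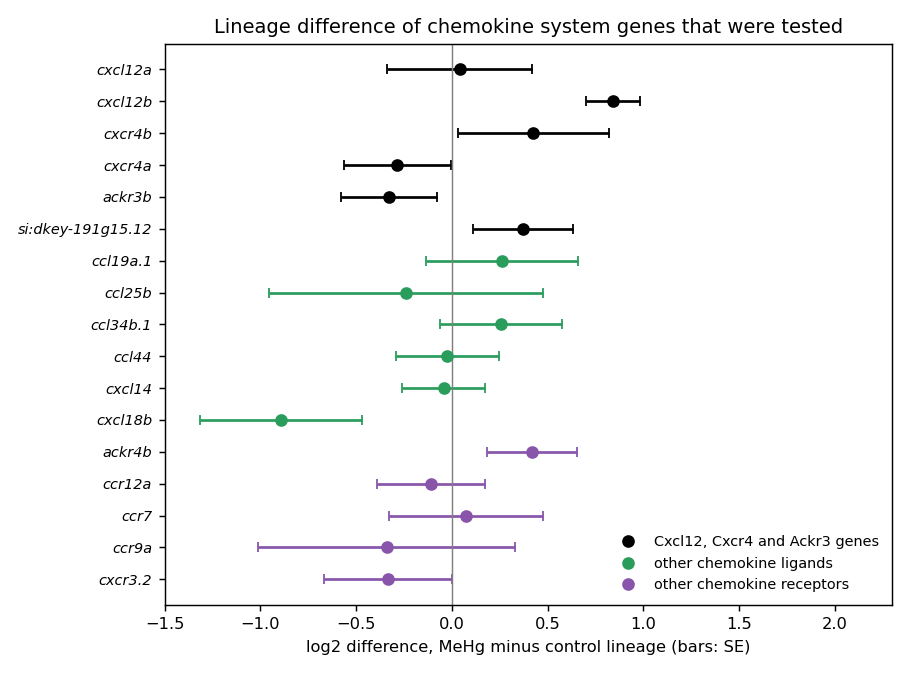
Log2 difference, MeHg minus control lineage, with its SE from limma, for the 6 Cxcl12, Cxcr4 and Ackr3 genes (black), 6 other chemokine ligands (green) and 5 other chemokine receptors (purple) that were tested. cxcl12b lies at 0.84 ± 0.14, and the other genes lie between -0.89 (cxcl18b) and 0.42.

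Steps below the receptors showed no gene past the threshold. Chemokine receptors signal through Gi proteins and are switched off by receptor kinases and arrestins, and of 20 such genes 13 had positive and 7 negative differences, with a median of 0.07 and 0 at an unadjusted p under 0.05 (limma). In this list the Gi subunit gene gnai3 stood at 0.50 ± 0.24 (SE; limma, adjusted p = 0.777). The 22 downstream kinase and migration genes were split 11 to 11 with a median of 0.01, and 1 had an unadjusted p under 0.05 (limma). That gene was pik3cg, the phosphoinositide kinase subunit activated by G proteins, at 0.64 ± 0.23 (SE; limma, adjusted p = 0.611).

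Proteases and binding partners shape how much ligand is free. Of 16 such genes 0 passed the threshold and 1 had an unadjusted p under 0.05 (limma). It was mmp2, a gelatinase known in mammals to cleave CXCL12, at 0.78 ± 0.24 (SE; limma, adjusted p = 0.427). A fit without the 4 libraries with a positive epidermis score was added after seeing the data. In it 48 of 15231 genes passed, and cxcl12b did not. There mmp2 passed, at 0.84 ± 0.13 (SE; limma, Benjamini-Hochberg adjusted p = 0.0233), as the only gene on any list other than that of the clock genes. Hypoxia-inducible factors raise Cxcl12 and Cxcr4 transcripts in mammals, and of 18 such factors and targets 0 passed, with 2 at an unadjusted p under 0.05 (limma), egln2 at 0.95 ± 0.38 (SE) and pgk1 at -0.29 ± 0.13 (SE). Of 24 genes for axon guidance and neuronal migration 0 passed and 19 had positive differences, with a median of 0.20 beside 0.03 over all genes. The share of positive differences over all genes is not given, so nothing is read from that count. The only one of the 24 at an unadjusted p under 0.05 (limma) was slit2, a repellent guidance cue, at 0.30 ± 0.13 (SE; adjusted p = 0.715). Counts at an unadjusted p under 0.05 in this and the other lists stand beside 1082 of all 16364 tested genes.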

How the data were processed

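Total RNA of F3 brains was sequenced as paired-end TruSeq libraries, per the labels' protocols. Build Zv9 and the tools TopHat, Cuffnorm, cutadapt, FastQC and CASAVA 1.8.2 are listed in the submitters' processing notes. Neither the strand setting nor the counting of reads that gene copies share is stated there. The authors deposited a table of signal values, fragment counts scaled by 1 size factor per library, and a table of FPKM values, which the authors had normalised for length and depth. The scaling was read from the values, since 98.2% to 98.9% of low values were whole multiples of a step (within 0.01), taken as 1 fragment. A value of 3 fragments was 2.01 to 6.86. Each table has 1 column without a name, which was not used, leaving 11 of 12 libraries.

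Genes with a scaled count of 10 or more in 6 or more libraries entered a fit of log2(value + 1) by limma 3.58.1 (trend and robust eBayes, statmod 1.5.0, R 4.3.3) and Benjamini-Hochberg adjustment at 0.05, lineage being the only term. The plan assumed 12 libraries and count tests as alternatives, which were not run because the values are not raw counts. Scores, exact tests and figures used Python 3.11.15, numpy 2.4.6, pandas 2.3.3 and matplotlib 3.10.9. A run of the limma fit on simulated data, without tissue differences between libraries, checked the code only. The genes and lists were chosen with earlier results of these data known. Named genes are the 4 genes, up to 3 genes of each list with the smallest p (for cell types, the highest FPKM) and the 3 genes most like each of the 4. ccl25b, cxcl14 and the 2 Ackr3 genes fall outside this rule and were chosen after their values were seen. Alternatives covered scaling, filters, pseudocounts of 0.5 and 5, the FPKM table, robust estimation, the replicate number as a block and each library left out.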

Additional observations from a re-analysis of the deposited data

Results flagged for a closer look

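Among 32 sets of the 5 or 6 libraries of 1 lineage checked for a library far from the rest, 2 held one, and chance gives about 1 in 20. cxcr4b stood at a scaled count of 96.3 in control replicate 4, against 34.2 to 46.0 in the other 4 control libraries. The skeletal muscle marker score was 1.49 in control replicate 5, against -1.36 to -0.59 in the other 4.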

How the results depend on the processing

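Alternatives that count raw reads were not run, because the deposited values are scaled. The number of genes past the threshold (44) was 24 without scaling between libraries, 20 with the replicate number as a block (9 of 29 clock genes, against 18), and 34 to 72 with 1 library left out, the 72 without control replicate 5. Same-numbered libraries of both lineages correlated at r = 0.0992, 0.463, 0.193 and 0.0554 in their deviations (replicates 2, 4, 5 and 8), all positive. Libraries of different number ran from -0.364 (control replicate 6 with MeHg replicate 4) to 0.418 (control replicate 6 with MeHg replicate 7). The labels do not say whether a number marks a shared batch, and the reported fit did not take the numbers as pairs. Only numbers 2, 4, 5 and 8 occur in both lineages, so with the replicate block the difference rests on those libraries alone. The count of genes past the threshold in that fit thus comes from fewer libraries than in the reported fit. Under the replicate block cxcl12b stood at 0.84 ± 0.20 (SE) and no longer passed the threshold, and cxcr4b stood at 0.70 ± 0.23 (SE). The cxcl12b difference did not pass with TMM factors (0.81) or in 8 of 11 fits that left out 1 library (0.76 to 0.90 over all 11) either. For cxcl12b the difference without scaling was 1.12, also short of the threshold and the 1 alternative that moved it by more than its spread. In the control lineage alone the order of neighbours by FPKM gave 2.31, 0.36 and 0.74 (adjusted exact p = 0.188, 0.375 and 0.188, n = 5, where the smallest unadjusted p is 0.0625), and the step from cxcl12b to cxcr4b was 0.78 in the MeHg lineage alone. That step ran from 0.476 to 0.750 with 1 library left out and lost its call in 8 of the 11 cases. Left out 1 at a time, libraries gave r = 0.684 to 0.853 for cxcl12a and cxcr4b (call lost in 6 cases, lowest without MeHg replicate 4), 0.919 to 0.973 for cxcl12a and the immune score, and 0.701 to 0.910 for cxcr4b and that score (call lost without MeHg replicate 4 or 5). Without the 4 libraries with a positive epidermis score these were 0.141, 0.929 and 0.306, with 7 libraries in the test, and 48 of 15231 genes passed the threshold. Both that alternative and the relations of the Ackr3 genes were added after seeing the data; of 8 such relations 0 passed and 1 had an unadjusted exact permutation p under 0.05 (ackr3b and cxcl12a, r = 0.704, adjusted p = 0.202).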
